A study of Mus musculus with 4 samples.

Results

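Copying the genome in S phase takes a fixed set of proteins, and 42 genes that encode them were examined here in mouse mammary tissue. They were taken as a list by symbol, for their roles in licensing of origins, unwinding, DNA synthesis, clamp loading, chromatin copying and the supply of deoxynucleotides. Of the 42 genes, 41 had at least 1 named probe set among the 22690 of the array, 74 probe sets in all, and these are read against all 12394 named genes. Chaf1a, a subunit of the chromatin assembly factor CAF-1, had none and has no value here.

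The samples were 4 arrays, each of RNA pooled from 5 female nulliparous mice on a C57BL/6 background, and each the only array of its group. The groups were wild-type mammary gland and Sca-1 KO mammary gland, both at 6 weeks of age, and wild-type and Sca-1 KO mammary tumors. Sca-1 (stem cell antigen-1) sits on the cell surface and is often used to sort stem-like cells, and the wild-type animals were littermates matched in age. The tumors were induced with MP-DMBA, that is 15 mg of the depot progestin MP, given subcutaneously, and then the carcinogen DMBA by gavage at 1 mg a week, 4 times. The labels give no age for the tumor mice. They attach the same treatment text to all samples, but the groups' own labels name the treatment for the tumors only.

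Before S phase, the origin recognition complex (Orc1 to Orc6) together with Cdc6 and Cdt1 loads the Mcm2 to Mcm7 helicase onto origins, which is called licensing, and geminin (Gmnn) and the Dtl ubiquitin ligase adaptor keep Cdt1 from doing so again. The kinase Cdc7, Mcm10 and Cdc45 then turn the helicase on, RPA coats the single strands, primase and the polymerases alpha, delta and epsilon make DNA, and RFC loads the PCNA ring that holds the polymerases in place. Ribonucleotide reductase (Rrm1, Rrm2), thymidylate synthase (Tyms), thymidine kinase (Tk1) and dUTPase (Dut) supply the deoxynucleotides and keep uracil out of DNA. Many of these genes are textbook targets of the E2F transcription factors, which RB proteins hold in check until a cell commits to S phase, so their RNA is low in resting tissue and high where many cells divide. In a bulk sample a larger share of dividing cells and more RNA per dividing cell cannot be told apart.

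Because E2F factors are known regulators of this set, the promoters were searched for 4 E2F words, TTTCCCGC, TTTCGCGC, TTTGCCGC and TTTGGCGC, on both strands, in the window from 250 bases before to 50 bases after the annotated start of each gene (RefSeq, build GRCm38.p6). Overlapping words on opposite strands were counted separately. Of the 37 listed genes with such a window (44 windows), 14 held at least 1 word, 37.8%, against 575 of 17491 protein-coding genes, 3.29%. A CCAAT box (CCAAT, both strands), a common element of cell cycle promoters, was in 23 of the 37 and in 42.3% of all. It overlapped no E2F word in the windows printed here, but shared 1 base with a word in an Mcm7 window that is not printed. Gmnn, Mcm4, Prim2, Pole and Rfc2 had no window in the table. A match is a string of letters and no evidence of binding. The windows of 7 genes on which the comparisons below turn are shown, with E2F words in capitals. Mcm5, Mcm6, Dtl, Lig1 and Uhrf1 were among the listed genes that differed most between tumors or between tumor and gland and held a word. Rrm2 differed as much and held none of the 4, and Rfc3 held 2 and differed little between genotypes.

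Mcm5, chr8:75109259-75109558, plus strand: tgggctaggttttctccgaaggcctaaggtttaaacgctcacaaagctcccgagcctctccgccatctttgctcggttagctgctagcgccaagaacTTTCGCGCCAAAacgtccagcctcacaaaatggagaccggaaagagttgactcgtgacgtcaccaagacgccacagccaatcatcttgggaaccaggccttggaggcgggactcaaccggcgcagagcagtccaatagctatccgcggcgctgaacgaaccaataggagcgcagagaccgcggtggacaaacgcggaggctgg
Mcm6, chr1:128359656-128359955, minus strand: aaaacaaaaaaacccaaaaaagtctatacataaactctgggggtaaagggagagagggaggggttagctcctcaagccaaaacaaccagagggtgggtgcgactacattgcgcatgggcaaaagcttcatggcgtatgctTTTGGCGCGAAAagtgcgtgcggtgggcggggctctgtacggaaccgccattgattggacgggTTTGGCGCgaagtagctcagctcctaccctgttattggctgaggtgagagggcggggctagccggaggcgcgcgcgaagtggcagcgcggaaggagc
Dtl, chr1:191575495-191575794, minus strand: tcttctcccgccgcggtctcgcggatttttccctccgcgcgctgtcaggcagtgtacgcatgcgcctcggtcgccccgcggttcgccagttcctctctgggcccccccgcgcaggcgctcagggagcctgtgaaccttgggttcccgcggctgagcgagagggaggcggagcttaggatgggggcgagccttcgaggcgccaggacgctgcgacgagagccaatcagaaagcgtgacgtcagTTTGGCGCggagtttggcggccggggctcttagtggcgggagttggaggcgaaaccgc
Lig1, chr7:13278576-13278875, plus strand: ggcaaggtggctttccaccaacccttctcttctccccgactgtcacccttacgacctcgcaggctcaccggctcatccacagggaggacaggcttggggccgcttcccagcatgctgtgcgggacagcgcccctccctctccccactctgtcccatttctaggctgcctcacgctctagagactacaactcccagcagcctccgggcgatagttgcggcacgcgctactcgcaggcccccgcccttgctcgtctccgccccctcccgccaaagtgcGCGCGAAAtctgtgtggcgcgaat
Uhrf1, chr17:56304063-56304362, plus strand: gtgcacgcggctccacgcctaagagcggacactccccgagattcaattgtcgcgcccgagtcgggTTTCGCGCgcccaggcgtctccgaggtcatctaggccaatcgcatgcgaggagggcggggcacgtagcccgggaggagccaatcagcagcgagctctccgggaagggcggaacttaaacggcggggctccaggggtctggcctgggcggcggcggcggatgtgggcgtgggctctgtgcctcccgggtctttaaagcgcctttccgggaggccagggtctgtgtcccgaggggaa
Rrm2, chr12:24708004-24708303, plus strand: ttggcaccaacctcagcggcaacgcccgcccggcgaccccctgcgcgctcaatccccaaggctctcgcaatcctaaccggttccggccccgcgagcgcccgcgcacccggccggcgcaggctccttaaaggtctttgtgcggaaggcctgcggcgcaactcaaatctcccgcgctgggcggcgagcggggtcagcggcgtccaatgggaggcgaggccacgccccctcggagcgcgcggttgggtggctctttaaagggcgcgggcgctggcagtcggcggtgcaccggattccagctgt
Rfc3, chr5:151651159-151651458, minus strand: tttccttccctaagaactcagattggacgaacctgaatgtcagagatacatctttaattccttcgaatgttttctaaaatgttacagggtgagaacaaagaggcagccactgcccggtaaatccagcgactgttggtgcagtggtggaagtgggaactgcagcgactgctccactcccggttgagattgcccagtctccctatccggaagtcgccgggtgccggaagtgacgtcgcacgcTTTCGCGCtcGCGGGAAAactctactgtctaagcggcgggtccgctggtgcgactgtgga

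The overlapping words of Mcm5 and the upstream pair of Mcm6 overlap by 4 bases on opposite strands. In Dtl and Rfc3 the words lay within 10 bases of the annotated start, in Lig1 after it. Lig1 has 3 annotated windows and Uhrf1 has 2, and the ones shown are those with the word.

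Signals are linear intensities that the authors had scaled to a common trimmed mean of 500 on each array. In what follows paired signals are given with wild type first. A difference is that of log2(signal + 27.3), where 27.3 is the lower quartile of all signals, and it understates the change of dim genes. A gene is counted as higher or lower where it differed at least 2-fold on that scale, a log2 difference of 1, and the floor used to call a signal dim is the median of all signals, 168. With 1 array per group there is no replicate, no test and no p-value, and a difference is one between 2 pools. As a gauge of the spread between probe sets, the differences of the 2 brightest probe sets of a gene were compared over 2262 genes. Both had a mean log2 value at or above the floor. Their disagreement was turned into a robust SD for 1 probe set, by division by the square root of 2. It was 0.21 (glands) and 0.17 (tumors) for genotype differences, and 0.49 (wild type) and 0.45 (knockout) for tumor against gland. This gauge does not cover dim probe sets or differences between mice. Nor does it cover variation between arrays that moves both probe sets of a gene together. Ratios of 3' to 5' control probe sets, a sign of RNA integrity, were 2.35 and 1.61 for Actb in the glands and 1.23 and 1.29 in the tumors, and 1.72, 0.988, 0.768 and 0.876 for Gapdh in the same order. Of 9 measured control genes the median difference was 0.03 between the glands and 0.06 between the tumors. For tumor against gland it was 0.36 in wild type and 0.51 in the knockout. Luminal and basal epithelial markers were at or above the floor for 9 of 11 and 9 of 10 genes in both tumors. In both glands the luminal count was 9 of 11 too, and the basal count was 8 (wild type) and 9 (knockout) of 10. These counts thus do not tell tumor from gland. All 12 measured adipocyte markers were at or above the floor in both glands. So were all 14 markers of skeletal muscle, a tissue that the labels do not name. In the tumors 0 (wild type) and 1 (knockout) of the muscle markers reached it.

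**Figure D1:**
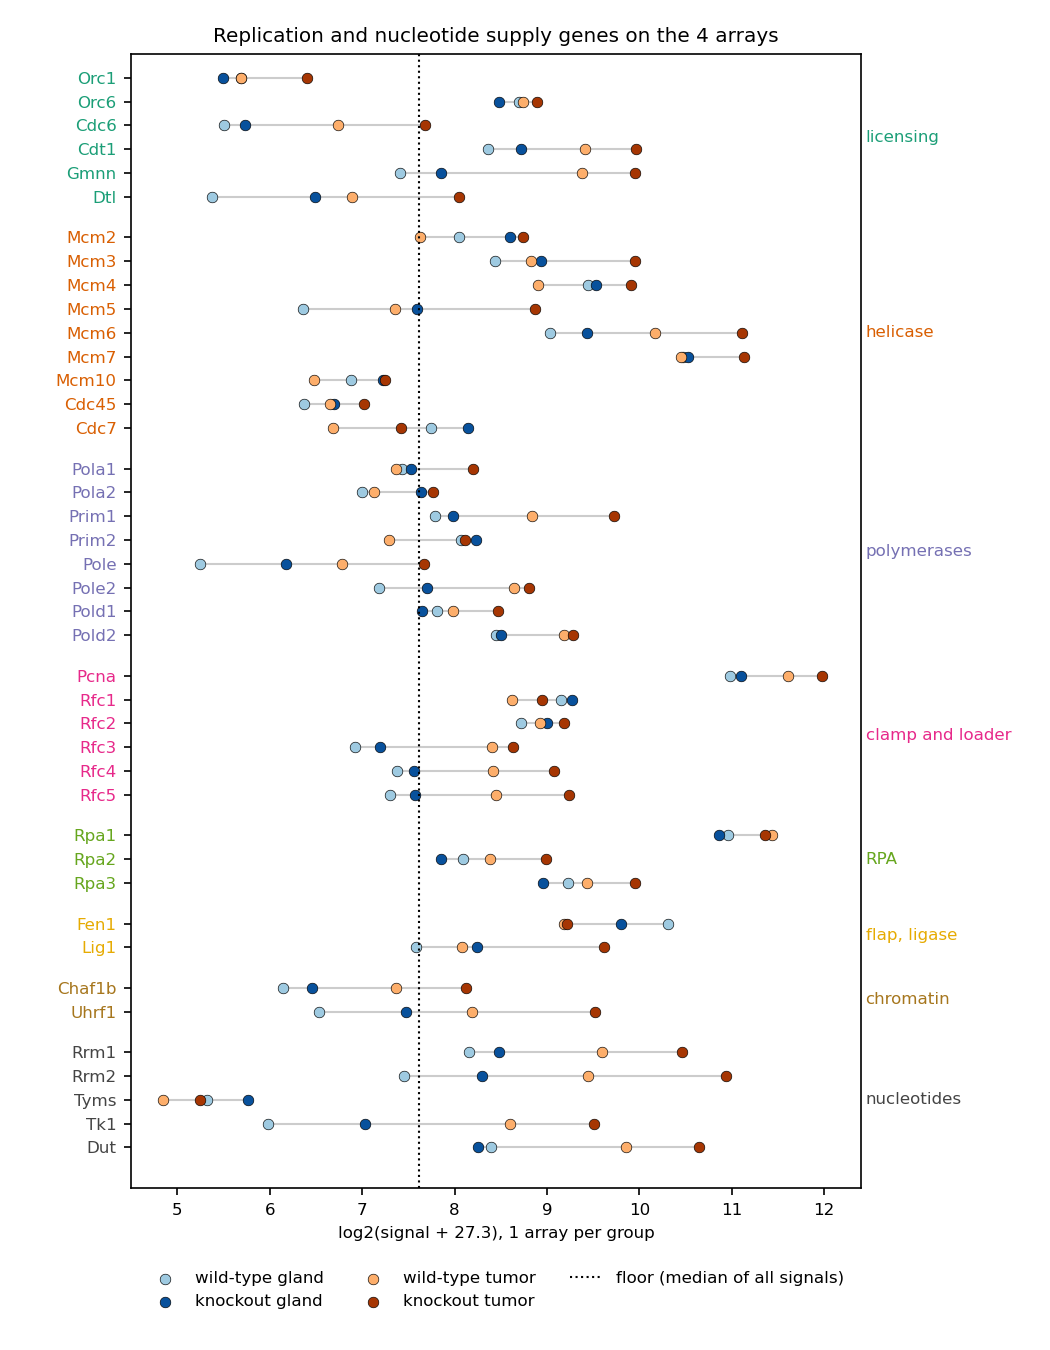
Signals of the 41 measured genes on the 4 arrays, as log2(signal + 27.3) on the horizontal axis, 1 point per array coloured by group, with gene names ordered and coloured by role. The dotted line is the floor, a signal of 168. The knockout tumor, the darkest orange point, lies farthest right for most genes, and Tyms lies left of the floor on all arrays.

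Among the listed genes 21 reached the floor in the wild-type gland and 26 in its knockout counterpart, against 28 and 36 in the tumors. Of all named genes the share at or above it was 58.4%, 60.8%, 56.1% and 56.6% in the same order. Of the 41 genes 19 reached the floor on all arrays and 4 (Orc1, Mcm10, Cdc45 and Tyms) on none.

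The comparison of knockout with wild-type tumors asks how the replication machinery differed between tumors that arose with and without Sca-1. Nearly the whole list had more signal in the knockout tumor, mostly by less than 2-fold. Of 41 genes, 40 had a positive difference, 8 were higher by at least 2-fold (19.5%) and none was lower, with a median of 0.74 (1.67-fold). Of all 12394 named genes 6317 were positive, 1.85% were higher and 1.79% lower, with a median of 0.01. The 8 were the ligase Lig1, the helicase subunits Mcm5, Mcm3, Mcm2 and Mcm4, the reductase subunit Rrm2, Uhrf1 and Dtl, each with a knockout signal above the floor. Mcm4, at 1.01, lay just inside 2-fold, while Cdc6 and Mcm6 at 0.94 lay just outside. No sign changed under the other 3 scalings of the arrays, but the count depended on the offset, from 4 with an offset of 168 to 13 with an offset of 1, where 61 and 925 of the 12394 named genes were higher in place of 229. With the mean of all probe sets of a gene 5 were higher, and 174 of all named genes.

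Of the roles with more than 2 genes, the helicase had the largest median, 0.94. All 9 genes were positive and 4 were past 2-fold. Mcm5 had signals of 54.5 and 166 in the glands and 136 and 441 in the tumors, so that the knockout tumor was the brightest of the arrays and the wild-type gland the dimmest. The tumor difference was 1.52, or 2.87-fold. Mcm2 had signals of 237 and 361 in the glands and 171 and 402 in the tumors by its brighter probe set, with the wild-type tumor lowest. Its second probe set had signals of 213 and 529 in the tumors, a difference of 1.21 beside 1.12. Mcm3 had 319 and 464 in the glands and 426 and 967 in the tumors, a tumor difference of 1.13, and all 5 of its probe sets were positive there, from 0.10 to 1.20. For Mcm4 the signals were 671 and 713 in the glands and 451 and 937 in the tumors, with the knockout tumor highest, and the 2 probe sets differed by 1.01 and 0.92 between tumors. Mcm6, with signals of 495 and 663 in the glands and 1121 and 2182 in the tumors, was above the glands in both tumors and differed by 0.94 between tumors. Mcm7 had 1399 and 1448 in the glands and 1376 and 2213 in the tumors by its brightest probe set, alike on 3 arrays and highest in the knockout tumor, and its 4 probe sets gave tumor differences of 0.67 to 0.90. The 6 subunits of the ring, which work in equal numbers, thus had tumor differences between 0.67 and 1.52.

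The factors that turn the helicase on were also positive between tumors and none was past 2-fold. Mcm10, which the active helicase needs, had signals of 90.8 and 122 in the glands and 61.9 and 125 in the tumors, all under the floor. Cdc45, a part of the active helicase, had 55.2 and 76.2 in the glands and 73.2 and 103 in the tumors, also under the floor on every array, with a tumor difference of 0.37. Cdc7, the kinase that fires origins, had 187 and 257 in the glands and 75.6 and 145 in the tumors and was the only helicase gene of the list with both tumors below both glands. Its tumor difference was 0.74.

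Among the licensing genes 1 of 6 was past 2-fold and all were positive. Dtl, which marks Cdt1 for destruction in S phase, had signals of 14.1 and 62.8 in the glands and 91.2 and 237 in the tumors, a tumor difference of 1.16. Cdc6, the loader that works with Cdt1, had 18.2 and 25.7 in the glands and 79.6 and 178 in the tumors, close to the bottom of the range in both glands and above the floor in the knockout tumor alone. Cdt1 itself had 303 and 394 in the glands and 653 and 969 in the tumors by its brightest probe set, and its inhibitor Gmnn had 143 and 204 in the glands and 640.0 and 963 in the tumors. Both were higher in each tumor than in either gland, and their tumor differences were nearly equal, 0.55 and 0.57. Orc6 and Orc1 are subunits of the origin recognition complex. Orc6 had 389 and 330.0 in the glands and 399 and 449 in the tumors, a narrow range with a tumor difference of 0.16, and Orc1 had 24.4 and 17.6 in the glands and 24.2 and 57.1 in the tumors, too dim for its difference of 0.71 to be read as a size.

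Polymerase and primase genes were all positive between tumors and none of the 8 was past 2-fold, with a median of 0.73. Prim1, the catalytic primase subunit, had signals of 194 and 226 in the glands and 431 and 819.9 in the tumors, higher in both tumors than in the glands, and its 2 probe sets differed by 0.89 and 0.95. Pole, the catalytic subunit of the leading-strand polymerase, had 10.7 and 45.2 in the glands and 82.8 and 177 in the tumors and reached the floor in the knockout tumor alone. Pola1, the catalytic subunit of polymerase alpha, had 145 and 157 in the glands and 137 and 266 in the tumors, with 3 arrays alike and the knockout tumor apart, a difference of 0.83. Pola2, its regulatory subunit, had 100.2 and 171 in the glands and 113 and 190.3 in the tumors, and both knockout arrays exceeded both wild-type arrays. Prim2, the large primase subunit, had 241 and 273 in the glands and 129 and 249.9 in the tumors, where the wild-type tumor was the low one. Pold1, the catalytic subunit of polymerase delta, had 197 and 173 in the glands and 226 and 326 in the tumors and a tumor difference of 0.48. The accessory subunits were the exceptions. Pole2 had 118 and 181 in the glands and 372 and 419 in the tumors and Pold2 had 322 and 336 in the glands and 556 and 594 in the tumors, with tumor differences of 0.16 and 0.09, although both lay higher in the tumors than in the glands.

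Clamp and clamp loader genes differed less between tumors, with a median of 0.35 and none of the 6 past 2-fold. Pcna, the sliding clamp, had signals of 1997 and 2171 in the glands and 3108 and 3993 in the tumors, a tumor difference of 0.36. The RFC subunits form 1 complex. Rfc4 had 139 and 162 in the glands and 313 and 512 in the tumors and Rfc5 had 130.0 and 163 in the glands and 321 and 577 in the tumors, with tumor differences of 0.66 and 0.79. Rfc3 had 94.2 and 119 in the glands and 313 and 369.5 in the tumors, Rfc2 had 393 and 486 in the glands and 457 and 555 in the tumors and Rfc1, the large subunit, had 542 and 591 in the glands and 366 and 468 in the tumors, and these differed by 0.22, 0.26 and 0.33. Whether the subunits of the complex differ from each other could not be tested with 1 array each.

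The 3 RPA genes, whose products bind as 1 complex, had a median of 0.52 between tumors and none was past 2-fold. Rpa1, the large subunit, had signals of 1969 and 1833 in the glands and 2734 and 2593 in the tumors, and with a tumor difference of -0.08 it was the only listed gene below 0. Its second probe set differed by 0.07. Rpa2 had 245 and 203 in the glands and 307 and 482 in the tumors and Rpa3 had 574 and 469.7 in the glands and 666 and 965 in the tumors, both highest in the knockout tumor and lowest in the knockout gland, with tumor differences of 0.61 and 0.52. The dimmer second probe set of Rpa2 was lowest in the wild-type gland instead, with signals of 49.9 and 137 in the glands and 172 and 234 in the tumors.

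Lig1, the ligase that joins Okazaki fragments, had the largest tumor difference of the list. Its signals were 165 and 276 in the glands and 244 and 759.6 in the tumors, a difference of 1.54 or 2.90-fold, and 0.476% of all named genes had a larger one. Fen1, the nuclease that trims the flap before ligation, could not be read, because its 2 probe sets opposed each other. The brighter one had signals of 1246 and 865 in the glands and 555 and 569.8 in the tumors, lower in both tumors than in the glands, and the dimmer one 115 and 196 in the glands and 337 and 558 in the tumors, higher in both, and between tumors they differed by 0.04 and 0.69. Uhrf1, which recruits the maintenance methyltransferase to newly copied DNA, had 65.2 and 151 in the glands and 265 and 705 in the tumors, a tumor difference of 1.32, and its dimmer probe set gave 1.25. Chaf1b, a CAF-1 subunit that deposits histones behind the fork, had 43.3 and 60.6 in the glands and 138 and 252 in the tumors and differed by 0.76.

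Of the 5 nucleotide supply genes 1 was past 2-fold and all were positive between tumors, with a median of 0.86. Rrm2, the S phase subunit of ribonucleotide reductase, had signals of 149 and 286 in the glands and 669.6 and 1929 in the tumors by its brightest probe set, a difference of 1.49 or 2.81-fold, and its other 2 probe sets gave 1.47 and 0.74. Rrm1, its partner, had 259 and 329.5 in the glands and 747 and 1381 in the tumors, with a tumor difference of 0.86, and 0.77 by its second probe set. Tk1, the salvage kinase for thymidine, had 35.9 and 104 in the glands and 361 and 703 in the tumors and differed by 0.91. Dut had 309.8 and 278 in the glands and 898 and 1576 in the tumors, with glands alike and a tumor difference of 0.79, while its second probe set was under the floor on all arrays. All 3 probe sets of Tyms gave signals between 0.4 and 27.1 on every array, so thymidylate synthase had no signal above the lower quartile of the arrays and its differences are not read.

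Markers of other cell types differed between the tumors as well. Of 14 measured keratinising epithelial markers 9 were lower and none higher in the knockout tumor, and their summed signal was 9807 and 2020. All 9 measured fibroblast markers were negative, with summed signals of 25423 and 16088, while the luminal sum was 43974 and 48276 and the basal sum 38531 and 36482. Among the 10 basal markers Myh11 (-1.38) and Cnn1 (-1.19), of contractile cells, were lower and the keratin Krt17 (1.28) was higher. Of the muscle markers 13 of 14 were positive and 3 higher, with sums of 477 and 982. Of the macrophage markers 3 of 12 were positive, with sums of 33786 and 26314, and of the endothelial markers 1 of 10, with 2455 and 2021. No marker of these lists had a signal of 0. Their part in the replication gene differences was not tested.

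The comparison of the glands asks whether the same genes differed with the genotype in tissue without a tumor. The differences were smaller, and their direction as a list rested partly on the scaling. Of 41 genes, 33 were positive, 3 were higher by at least 2-fold (7.32%) and none was lower, with a median of 0.29 (1.22-fold). Of all 12394 named genes 6920 were positive, 1.19% were higher and 0.282% lower, with a median of 0.04. Brought to a common median, the arrays gave 24 positive genes and a list median of 0.08, where that of all genes was -0.15. Quantile normalization and cyclic loess gave 28 and 29. In all, 11 genes changed sign under at least 1 of the 3 scalings (Cdc6, Mcm4, Mcm7, Pcna, Pola1, Pold2, Prim1, Prim2, Rfc1, Rfc3 and Rfc4).

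The 3 genes past 2-fold were Mcm5 (2.36-fold, gland signals 54.5 and 166), Dtl (2.18-fold, 14.1 and 62.8) and Tk1 (2.08-fold, 35.9 and 104). None of these signals reached the floor in either gland, and with an offset of 168 in place of 27.3 none of the 3 passed 2-fold. Just outside lay Uhrf1 at 0.95 (65.2 and 151) and Pole at 0.93 (10.7 and 45.2), again dim in both glands, and Rrm2 at 0.83 (149 and 286), with the knockout gland above the floor. Examples of genes at or above the floor in both glands were Mcm2 at 0.56, Mcm3 at 0.50, Mcm6 at 0.40 and Cdt1 at 0.35. Genes with negative values were Fen1 at -0.51, for the probe set that opposed its partner at 0.66, Rpa3 at -0.27, Rpa2 at -0.24, Orc6 at -0.22, Orc1 at -0.20, Pold1 at -0.16, Dut at -0.14 and Rpa1 at -0.10. All of these but Fen1 were between -0.27 and -0.10, near the spread of 1 probe set, 0.21.

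By role, the medians in gland were 0.63 for the 2 chromatin copying genes, 0.44 for nucleotide supply, 0.40 for the helicase and 0.29 for licensing. They were 0.22 for the clamp and loader, 0.18 for polymerases, 0.07 for the flap nuclease and ligase and -0.24 for RPA. The nucleotide supply median is the value of Tyms, and the 0.07 includes Fen1. Neither gene could be read, so these 2 medians are not read either. Lymphocyte markers were higher on the same array. Of 10 measured B cell markers all were positive and 8 higher, with summed signals of 2927 and 7882. Of 13 T cell markers all were positive and 2 higher, with sums of 4294 and 6535, and of 12 macrophage markers all were positive and 1 higher, with 16258 and 22244. None of these markers had a signal of 0. The 3' to 5' ratios given above also differed between the glands. Whether lymphocytes, RNA integrity or both bear on the gland values was not tested.

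The gland pair and the tumor pair share no array, so they can be set side by side. Across the 41 genes, Pearson's r between the genotype differences in gland and tumor was 0.63 and Spearman's rho 0.57, and across all 12394 named genes r was 0.01, where genes are not independent of each other. Both differences were positive for 33 of 41 genes, where 3546 of the 12394 named genes had both positive. Both were past 2-fold for Mcm5 and Dtl, and for 12 of all named genes. The tumor difference exceeded the gland difference in 34 of 41 genes, and in 5850 of all named genes. The gap was widest for Dut (0.94), Mcm4 (0.93), Lig1 (0.88) and Rpa2 (0.85) among genes that reached the floor on any array, and near 0 for Dtl (0.03), Rfc2 (-0.03) and Pole (-0.04). By the brightest probe sets, only Pole2, at -0.36, had a gland difference larger than its tumor difference by more than 0.21. That value is the spread of 1 gland difference and not of a gap between 2 differences. Dimmer probe sets of Rpa2 (1.09 in gland and 0.39 in tumor) and Rrm2 (1.16 and 0.74) also had the larger difference in gland.

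**Figure D2:**
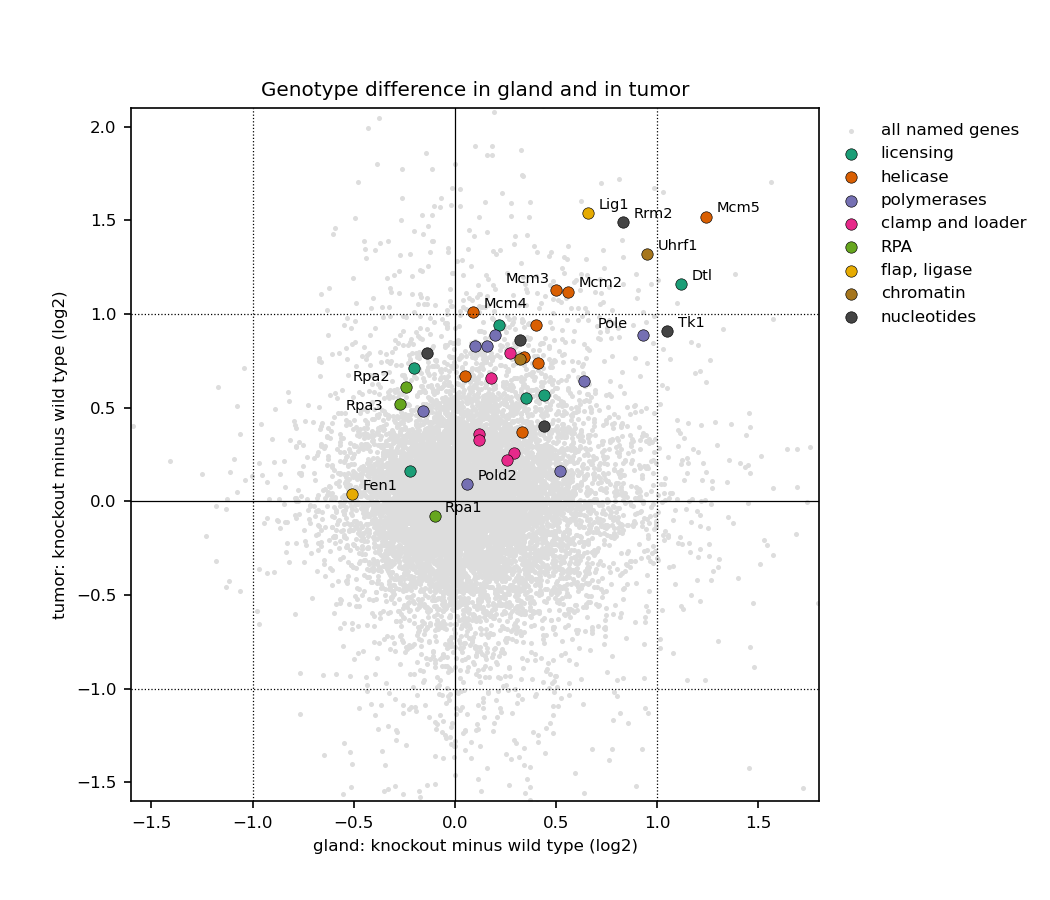
Knockout minus wild type on the log2 scale, in gland (horizontal) and in tumor (vertical), for the 41 genes by role, with all named genes in grey (those beyond the axes are not drawn). Dotted lines mark 2-fold. All genes but Rpa1 lie above 0 in the tumor, while gland values range from -0.51 to 1.24 and 11 of them change sign under another scaling.

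The comparison of tumor with gland asks how much of the replication program went with the tumor in each genotype. The labels name MP and DMBA for the tumors only, and give an age, 6 weeks, for the glands only. Tumor, treatment and any difference in age therefore cannot be told apart here. In wild type, 17 of 41 genes were higher in the tumor (41.5%), 2 were lower (4.88%) and the median was 0.49, where 10.1% of all named genes were higher and 15.8% lower, with a median of -0.13. In the knockout 21 of 41 were higher (51.2%) and none was lower, with a median of 1.02, where 9.59% of all genes were higher and 18.6% lower, with a median of -0.17. With an offset of 168 the counts were 5 higher and none lower in wild type and 12 higher in the knockout, where 684 and 676 of all named genes were higher in place of 1246 and 1188. With the mean of all probe sets, wild type had 11 higher and none lower, against 1063 and 1663 of all named genes. The 9 control genes had medians of 0.36 in wild type and 0.51 in the knockout, with 7 positive in each. Tissue makeup differed as well. The summed signal of muscle markers was 74532 and 71212 in the glands and 477 and 982 in the tumors, and that of adipocyte markers 67614 and 64314 against 7037 and 5472. Basal markers summed to 10825 and 11077 in the glands and 38531 and 36482 in the tumors, with 8 of 10 higher in wild type and 7 in the knockout, and luminal markers to 27432 and 22367 against the tumor sums given above. Keratinising markers summed to 773 and 1033 in the glands, with 11 of 14 higher in the wild-type tumor and 4 in that of the knockout. Of the B cell, T cell and endothelial markers 7 of 10, 7 of 13 and 6 of 10 were lower in wild type, and 8, 12 and 8 in the knockout. The part of these cell types in the replication gene differences was not tested.

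Nucleotide supply, chromatin copying and licensing genes had the largest median tumor against gland differences of the 8 roles, 1.46, 1.44 and 1.14 for wild type and 2.39, 1.85 and 1.40 for knockout. Tk1 was 6.14-fold higher in tumor than in gland for wild type and 5.57-fold for knockout. For Rrm2 these were 3.96-fold and 6.24-fold, for Dut 2.74-fold and 5.25-fold, and for Rrm1 2.70-fold and 3.95-fold. By these probe sets both tumors exceeded both glands in each case, and for Rrm2 by its other probe sets too. The second probe set of Rrm1 gave log2 differences of 0.29 and 0.47, with the wild-type tumor (171) below the knockout gland (217). That of Dut, under the floor on all arrays, had 68.3 and 61.1 in the glands and 20.5 and 68.1 in the tumors. By the mean of all probe sets the differences were 0.23 and 1.25 for Dut and 0.86 and 1.23 for Rrm1. The nucleotide supply medians above are the values of Dut. Gmnn was 3.93-fold and 4.29-fold higher, Cdc6 2.35-fold and 3.88-fold, and Uhrf1 3.16-fold and 4.11-fold. Rfc3, which barely differed between genotypes, was 2.80-fold and 2.72-fold higher. Mcm5 in wild type and Rpa3 in the knockout lay just under 2-fold, both 1.00 on the log2 scale after rounding.

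By the brightest probe sets, the helicase did not follow in wild type. Its median was -0.02 there, the value of Mcm7, and 0.38 in the knockout. In wild type 1 of 9 genes was higher (Mcm6 at 2.20-fold), and in the knockout 3 of 9 were (Mcm6, Mcm5 and Mcm3). By the probe sets that stand for the genes, Mcm2 differed by -0.42, Mcm4 by -0.55 and Mcm7 by -0.02 in wild type, the last of which turned positive when the arrays were brought to a common median. The second probe sets of Mcm2 and Mcm4 were positive, 0.42 and 0.29, and the other 3 of Mcm7 were 0.39, 0.57 and -0.12. The sign of the helicase median in wild type therefore rests on the probe sets chosen. Without probe sets whose identifiers end in _s_at or _x_at, which can match several transcripts, the median of the whole list was 0.74 in wild type in place of 0.49. Cdc7 was lower in both tumors by both of its probe sets, -1.06 and -0.72 in wild type and -0.73 and -0.97 in the knockout. The other lower gene, Fen1 at -1.13, was 1.36 by its second probe set, and Prim2 (-0.78 and 0.47) and Rfc1 (-0.53 and 0.09) also split.

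**Figure D3:**
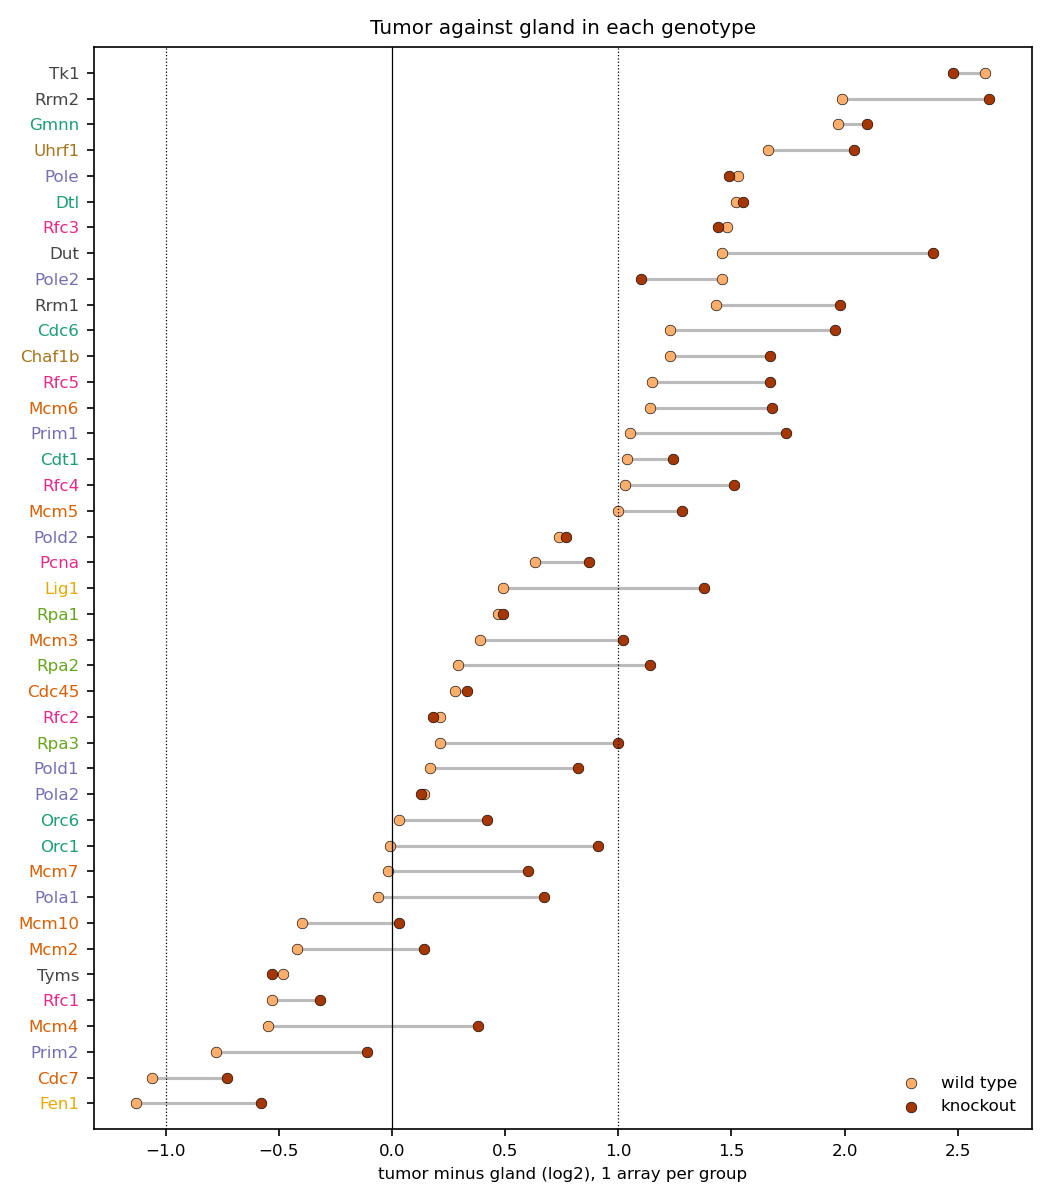
Tumor minus gland on the log2 scale for each of the 41 genes, in wild type (light) and knockout (dark), sorted by the wild-type value, with gene names coloured by role as in the plot of signals and dotted lines at 2-fold. Values run from -1.13 for Fen1 to 2.62 for Tk1 in wild type, and the knockout point lies to the right in 34 of 41 genes. By arithmetic these are the genes whose genotype difference was larger in tumor than in gland, so this is no separate result.

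Probe sets of one gene mostly had the same sign between tumors. Among 14 listed genes with at least 2 probe sets whose mean was at or above the floor, the probe sets had 1 sign in 13 for knockout against wild-type tumor, the exception being Rpa1. In the glands this was so for 9 of 14, and for tumor against gland for 8 of 14 in wild type and 12 of 14 in the knockout. Counted over all 74 probe sets, which share genes, 13 were higher and none lower between tumors, with 70 positive and a median of 0.73. Of all probe sets 1.53% were higher and 1.53% lower there, with a median of 0.00. In the glands 7 were higher, none was lower and 57 were positive, where 1.94% of all probe sets were higher and 0.23% lower.

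**Figure D4:**
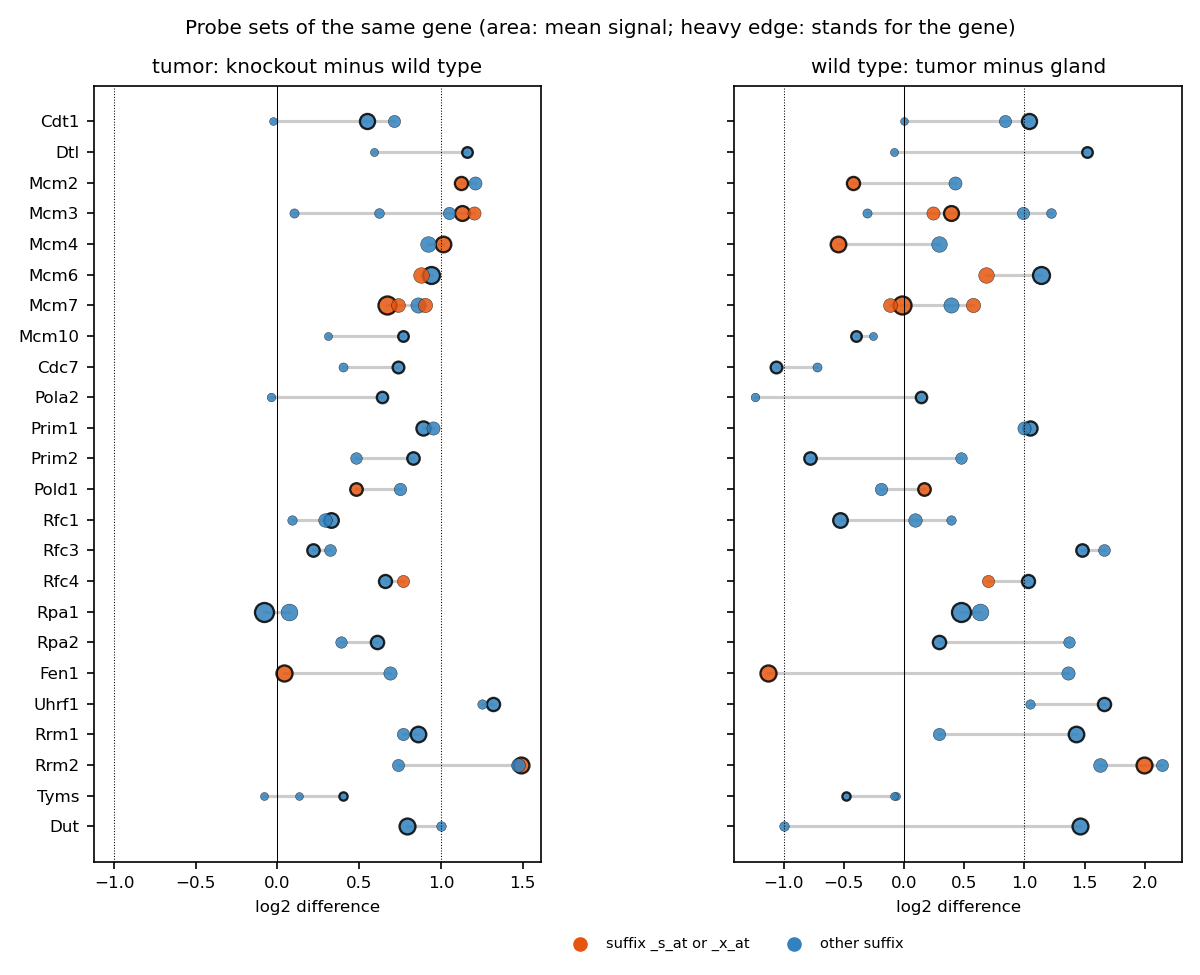
Log2 differences of every probe set of the 24 genes with several, for knockout minus wild-type tumor (left) and wild-type tumor minus gland (right). Point size grows with mean signal, orange marks suffixes _s_at and _x_at, and a heavy edge marks the probe set that stands for the gene. On the left the points of a gene mostly lie together above 0, and on the right the points of Mcm2, Mcm4, Prim2, Fen1 and Dut are among those on both sides of 0.

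Other genes of the same processes, from lists that hold none of the 42, had a smaller median tumor difference. These lists, those below and the 42 were all chosen with earlier results of these data known. Their medians are therefore set side by side as a description only. Of 28 measured genes of DNA replication 24 were positive between tumors, 1 was higher and none lower, with a median of 0.34. The largest were Ung, the glycosylase that removes uracil from DNA, at 1.15 (tumor signals 130.1 and 323), Hells, a chromatin remodeler, at 0.99 (306 and 634) and Asf1b, a histone chaperone, at 0.88 (218 and 423). The smallest were Orc4 at -0.21, the polymerase delta subunit Pold4 at -0.10 and the helicase cofactor Gins4 at -0.04. Dnmt1, the maintenance methyltransferase, had signals of 783 and 859.6 in the glands and 678 and 958 in the tumors, a tumor difference of 0.48 beside 1.32 for Uhrf1, which recruits it.

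Nucleotide metabolism outside the 5 listed genes had a smaller median still. Of 24 measured genes 16 were positive between tumors and none was past 2-fold, with a median of 0.21. Shmt1, a folate enzyme, was at 0.62, the deoxycytidine kinase Dck at 0.54 and the purine enzyme Paics at 0.41. Mthfd2, a mitochondrial folate enzyme, was at -0.43, the nucleoside transporter Slc29a1 at -0.19 and Dhodh, of pyrimidine synthesis, at -0.08. Against the gland these 24 had medians of 0.29 and 0.39, where the 5 listed supply genes had 1.46 and 2.39.

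Among the E2F and RB genes, 13 of 16 were positive between tumors and 1 was higher, with a median of 0.54. That was Ccna2, the cyclin of S phase and itself an E2F target, at 1.42 (signals 479 and 1328), followed by the RB relative Rbl1 at 0.88 and the cyclin Ccne2 at 0.85. E2f4 (-0.26), E2f6 (-0.03) and E2f5 (-0.02) were lowest. The activator E2f1 had signals of 110.1 and 117 in the glands and 89.6 and 118 in the tumors, below the floor throughout, and Myc, which drives growth and nucleotide genes, had 357 and 571 in the glands and 485 and 889.5 in the tumors, with both knockout arrays above both wild-type arrays. Mitosis genes had a larger tumor median than the replication list, 1.15 with 12 of 19 higher, and 0.75 in gland with none higher. The proliferation marker Mki67 had signals of 157 and 337 in the glands and 592 and 1204 in the tumors and the topoisomerase Top2a 165 and 314 in the glands and 601 and 1377 in the tumors. Against the gland all 19 mitosis genes were higher in both genotypes, with medians of 1.75 and 2.04, where the replication list had 0.49 and 1.02.

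**Figure D5:**
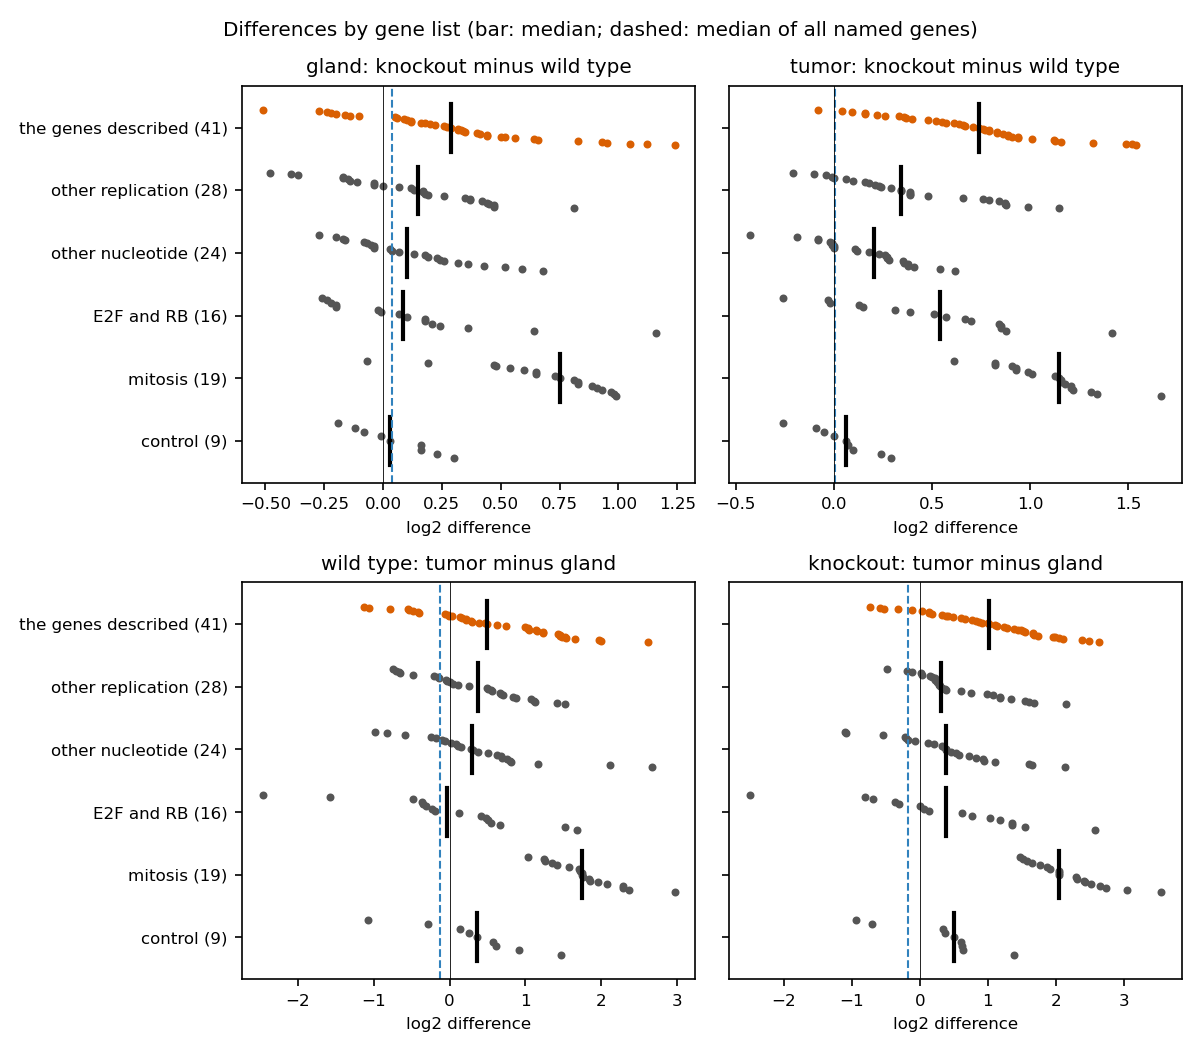
Log2 differences of the replication and nucleotide supply genes (orange) and of 5 other lists (grey), 1 point per gene stacked by rank, in the 4 comparisons, with black bars for medians and a dashed line for the median of all named genes. Between tumors the medians run from 1.15 for mitosis and 0.74 for the genes described to 0.06 for control genes, and between glands a common median moves that of all named genes from 0.04 to -0.15.

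Returning to the promoters shown above, the 14 measured genes with an E2F word had a median tumor difference of 0.89, from 0.16 (Pole2) to 1.54 (Lig1), with 5 past 2-fold. The 22 with a window and no word had 0.65, from -0.08 (Rpa1) to 1.49 (Rrm2), with 2 past 2-fold. The same medians were 0.38 and 0.24 between glands. Tumor against gland gave 1.02 and 0.38 for wild type and 1.26 and 0.82 for the knockout. The ranges overlapped in each comparison, Tk1 and Rrm2 being the highest genes of the tumor against gland comparison without a word, and these medians are a description of 1 array per group.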

How the data were processed

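Affymetrix arrays measured RNA of 4 groups, with 1 array each. Pools of 5 mice were used and the RNA was labelled with biotin, per the labels' protocols. As deposited, each probe set has 1 linear intensity, which the authors had scaled to a mean of 500 after leaving out the lowest and highest 2% (found from the values). Its software was not given in the sources used here. Symbols came from the platform annotation, updated by gene identifier for 20364 of 20393 probe sets with 1 symbol, while 691 with several and 1606 not listed were not used.

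Values were taken as log2(signal + 27.3). The probe set with the highest mean signal stood for a gene. No filter on dim genes was applied to counts. Every listed gene is given by its signals, and of other lists the 3 largest and 3 smallest tumor differences plus a few preset genes. The listed genes and the other lists were chosen with earlier results of these data known. The procedure was tested on simulated data with large changes in bright genes. Dim genes and differences near 2-fold were not covered by it. Python 3.11.15, pandas 2.3.3, R 4.3.3 and limma 3.58.1 were used. Alternatives were the offset, 3 scalings, probe set choice, 2 filters and a 1.5-fold threshold. The number of arrays limits the precision.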

Additional observations from a re-analysis of the deposited data

Results flagged for a closer look

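Among the listed genes, 2 had genotype differences of opposite sign in gland and tumor, each larger than the spread of 1 probe set. That spread was 0.21 between glands and 0.17 between tumors, and the gland values lay close to it. The Rpa2 difference was -0.24 between glands and 0.61 between tumors, and its second probe set was 1.09 and 0.39. Rpa3 was -0.27 and 0.52 with a single probe set. With 1 array per group these differences between tissues were not tested.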

How the results depend on the processing

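The tumor result kept its direction: under each other offset, scaling and probe set choice, the median of the listed genes between tumors was positive, from 0.47 to 0.87. The 2 filters drop genes and change no value, so they are left out of this range. With an offset of 1, 6 genes were higher between glands and 13 between tumors (median 0.87), 1 was lower for tumor against gland in the knockout, and the median there was 1.21. Of all 12394 named genes 748, 925 and 3728 did so. With the pooled median as offset, 0 were higher between glands (median 0.13), 4 between tumors (0.47), 5 higher and 0 lower in wild-type tumor against gland, and 12 higher in the knockout (0.81). All named genes gave 21, 61, 684, 820 and 676. Scaling every array to one median left 1 gene higher between glands (median 0.08), 0 were lower in wild-type tumor against gland (0.62), and the knockout median was 1.38. For all named genes these counts were 70 and 1713. The median of all genes between glands then moved from 0.04 to -0.15. Quantile normalization gave 1 higher between glands (median 0.08), 1 lower in wild type and a knockout median of 1.35, and cyclic loess 1, 0.10, 1 and 1.30. The same counts over all named genes were 86 and 1543 with quantile normalization and 82 and 1570 with cyclic loess. The mean of all probe sets gave 5 higher between tumors, 11 higher and 0 lower in wild-type tumor against gland, and a knockout median of 0.91. All named genes gave 174, 1063 and 1663. Without _s_at and _x_at probe sets, 1 was lower in wild type (median 0.74), as were 1904 of all named genes, and the knockout median was 1.24. A floor on the highest signal kept 37 genes, with tumor against gland medians of 0.74 and 1.14. A gene can pass it through the array where it is high, so no direction is read from it. A floor on the mean kept 30, with 1 higher between glands (median 0.19) and 1 lower in wild-type tumor against gland. Among the 7223 named genes it kept, the shares were 0.609% and 13.6%. At 1.5-fold, 8 were higher between glands, 26 between tumors, and 1 was lower in knockout tumor against gland, and of all named genes 843, 763 and 3952. Fen1 in wild-type tumor against gland reversed to 0.12 with the mean of its probe sets and to 1.36 without _s_at and _x_at. Of 357 recomputed values of the genes past 2-fold, 293 moved by less than the probe set spread, 62 by more and 2 reversed. No paired analysis was possible because each group had 1 array. Dim genes, such as those past 2-fold between the glands, are the least certain in size.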
